A study of Homo sapiens with 48 samples.

Results

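RIMS3, IL6R, BTG1, PPP3CA and MFSD2A are 5 genes of 61815 listed in 22Rv1 cells, and of 20009 that were expressed highly enough to test. They were chosen by measured values. They had among the lowest p-values for a difference in the effect of SNX631, an inhibitor of the Mediator kinases CDK8 and CDK19, between cells with an active kinase and cells with a kinase-dead one, or between cells rescued with CDK19 and cells rescued with CDK8. For the rescued cells their values are therefore given as a description, with no test. Tests were run only in the parental line and a luciferase subline, whose libraries were not compared in the choice. These tests share their estimate of spread with the rescued lines, so they are not independent of the choice. All 5 genes passed the filter on low counts, and the fewest counts of any of them in a library were 40, for MFSD2A.

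22Rv1 is a human castration-resistant prostate cancer cell line. Rv1-WT denotes the parent, and Rv1-Luc a subline made by lentiviral transfer of firefly luciferase. The remaining lines descend from 22Rv1 cells in which both CDK8 and CDK19 were knocked out with CRISPR/Cas9 and a single kinase was returned by lentivirus: wild-type CDK8 in dKO-8, the kinase-dead D173A mutant of CDK8 in dKO-8M, wild-type CDK19 in dKO-19 and the D173A mutant of CDK19 in dKO-19M. All were kept in medium with fetal bovine serum (FBS), and Rv1-WT and Rv1-Luc also in charcoal-stripped serum (CSS), which is poor in androgen and in which these cells had spent a passage before treatment. Cells received 500 nM SNX631 or 0.1% DMSO as vehicle for 72 h. This made 16 groups of 3 libraries. The kinases were introduced by a virus and not expressed from their own loci alone, and the kinase-dead forms differed from the active forms in RNA amount. The study's methods call the replicates biological, but the labels do not say how their cultures were kept apart, so p-values measure the spread between these libraries.

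Mediator couples transcription factors to RNA polymerase II, and CDK8 or its paralog CDK19 forms a separable kinase module with cyclin C, MED12 and MED13 that restrains or promotes transcription of particular genes. An effect of the inhibitor that needs kinase activity should be present in cells rescued with the active kinase and missing in those with the dead form, which is the reason for comparing them. The genes have unrelated functions. IL6R is the ligand-binding receptor chain for interleukin 6, a cytokine that signals through gp130, JAK kinases and STAT3 in prostate cancer cells. PPP3CA is a catalytic subunit of calcineurin, the calcium-dependent phosphatase that activates NFAT. BTG1 is an antiproliferative protein of the BTG/TOB family that binds the CCR4-NOT deadenylase. MFSD2A is a sodium-dependent carrier of lysophosphatidylcholine with polyunsaturated fatty acids, best known at the blood-brain barrier. RIMS3 is a short member of the RIM family of presynaptic active zone scaffolds.

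The depth was 13.2 to 31.5 M counts per library (median 21.4 M), lowest in Rv1-WT (13.2 to 18.2 M). The prostate epithelial identity of the line was checked by FOXA1 (508 to 1167 CPM, counts scaled to a common library total) and HOXB13 (173 to 317), present in all 48 libraries, while the leukocyte marker PTPRC did not exceed 0.696 CPM and CD3E was at 0 in 43 libraries. Not all markers were so clear. COL1A1 (2.54 to 10.8 CPM) and VIM (1.17 to 14.9), markers of other cell types, were counted in every library, and the prostate marker FOLH1 ranged from 4.90 to 548. In dKO-19M under vehicle, replicate 1 stood apart from the others. Its ratio of chi-square to degrees of freedom reached 17.7, against a median of 2.10 over the 48 replicate pairs. Differences that rest on that replicate are therefore also given without it. In Rv1-Luc in FBS under vehicle, a group used in the tests, replicates 1 and 2 gave 9.71 and replicates 1 and 3 gave 5.13. CDK8 stood at 68.7 CPM in dKO-8 and 123 in dKO-8M under vehicle, while CDK19 reached 510.4 in dKO-19 but 332 in its dead counterpart dKO-19M. At the protein level, the paper's Western blots put CDK19 in dKO-19 far above the parental cells and CDK8 in dKO-8 below them. The part of these amounts in the differences between active and dead lines, and between dKO-19 and dKO-8, was not tested. CDK8 was still counted in dKO-19 (27.7 CPM) and CDK19 in dKO-8 (103 CPM), and counts per gene do not separate an edited transcript from an introduced one. RNA was taken from bulk cultures, so fewer cells expressing a gene and less RNA per cell cannot be told apart.

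The upstream sequences of RIMS3, BTG1 and MFSD2A, which were all higher under SNX631 in both lines with endogenous kinases, are shown for the motifs that they hold. They come from the RefSeq promoter table (build GRCh38.p14), which matched 4 of the 5 genes (all but PPP3CA). The window searched was the 250 bases before the start of each gene. The printed run holds only bases before both the RefSeq start and the outermost start of the gene in GENCODE 29. Capitals mark matches, on either strand, to the motifs searched.
RIMS3, chr1:40665683-40665932, minus strand: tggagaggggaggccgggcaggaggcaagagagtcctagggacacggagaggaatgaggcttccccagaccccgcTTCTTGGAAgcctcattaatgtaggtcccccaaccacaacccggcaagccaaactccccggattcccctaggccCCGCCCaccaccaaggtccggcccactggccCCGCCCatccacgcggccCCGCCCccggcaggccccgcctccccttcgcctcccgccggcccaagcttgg
BTG1, chr12:92145898-92146096, minus strand: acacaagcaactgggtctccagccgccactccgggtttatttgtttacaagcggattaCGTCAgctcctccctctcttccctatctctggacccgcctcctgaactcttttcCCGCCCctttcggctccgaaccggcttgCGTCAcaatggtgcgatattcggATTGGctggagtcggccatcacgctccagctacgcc
MFSD2A, chr1:39954895-39955111, plus strand: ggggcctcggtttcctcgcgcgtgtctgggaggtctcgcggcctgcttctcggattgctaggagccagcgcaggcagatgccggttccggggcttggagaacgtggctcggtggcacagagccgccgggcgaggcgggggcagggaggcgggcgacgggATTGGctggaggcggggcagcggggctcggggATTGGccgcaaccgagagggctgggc
The motifs reported here were of 2 kinds. Those of the core promoter were TATAAA for the TATA box, CCAAT for the box of that name and GGGCGG for the Sp1 or GC box. Those of signalling factors were TGACG for the core of the cAMP response element, CACGTG for the E box, TGANTCA for AP-1, TTCNNNGAA for STAT factors and GGGNNTTCC for nuclear factor kappa B. RIMS3 held 3 GC boxes and a STAT site, MFSD2A 2 CCAAT boxes, and BTG1 a CCAAT box, a GC box, 2 cAMP cores and, in the bases not printed, a TATA box. IL6R held none of these. Of 35116 windows of the same length, 42.6% held a GC box, 32.0% a CCAAT box, 21.2% the cAMP core, 10.7% the TATA box and 6.57% the STAT site. No motif was shared by all 4 windows. A match is a description of letters and not a measured binding site.

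On the GRCh38 assembly with GENCODE 29, IL6R spans chr1:154405193-154469450 on the plus strand, PPP3CA chr4:101023409-101348278 on the minus strand, BTG1 chr12:92140278-92145897 on the minus strand, MFSD2A chr1:39955112-39969968 on the plus strand and RIMS3 chr1:40620679-40665657 on the minus strand. All are protein coding. MFSD2A and RIMS3 lie 650710 bases apart. BTG1 shares 503 exon bases with the noncoding LINC01619 on its own strand and 325 with AC025164.1 on the opposite strand, and 35.4% of its values were not whole counts, the largest share of the 5. The fractional part was at most 0.5 of a count. LINC01619 and AC025164.1 held 906.5 and 1330 counts over all 48 libraries, below the 2061.5 counts of BTG1 in its lowest single library. PPP3CA overlaps FLJ20021 on the opposite strand without shared exon bases, IL6R overlaps IL6R-AS1 likewise, and MFSD2A overlaps a processed pseudogene. Whether counting used the strand is not given in the sources used here, so reads from a gene and its antisense partner cannot be told apart.

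The effect of SNX631 was first tested in Rv1-WT and Rv1-Luc, which were not compared in the contrasts that chose the genes. These tests were still not independent of the choice. The spread was estimated over all 48 libraries, including the rescued lines whose low p-values picked the genes. The genes were also picked for their response to the same drug in related lines. Their calls beside the share of all genes are therefore no independent replication. RIMS3, BTG1 and MFSD2A rose in 4 of 4 settings. PPP3CA rose past the 1.5-fold limit in 3 of 4, and IL6R fell past it in 1 of 4. Calls required more than a 1.5-fold change and a false discovery rate (FDR) below 0.01. Of the 5 genes, 3 were called in Rv1-WT in FBS, where 2.39% of all genes tested were called in either direction, and 5 in Rv1-WT in CSS (4.23% of all genes). In Rv1-Luc, 4 were called in FBS (3.67% of all genes) and 4 in CSS (4.06%). For all 5 genes and all 4 settings, the 3 SNX631 libraries lay entirely above or entirely below the 3 vehicle libraries. The share of all genes separated in this way was not counted, so this is a description only. The median log2 change over all genes lay between -0.0014 and 0.0072 in these settings. Levels are CPM after scaling with TMM, the trimmed mean of M values. Errors of log2 fold changes and of their differences are standard errors from the fit over all 48 libraries, in groups of 3.

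**Figure D1:**
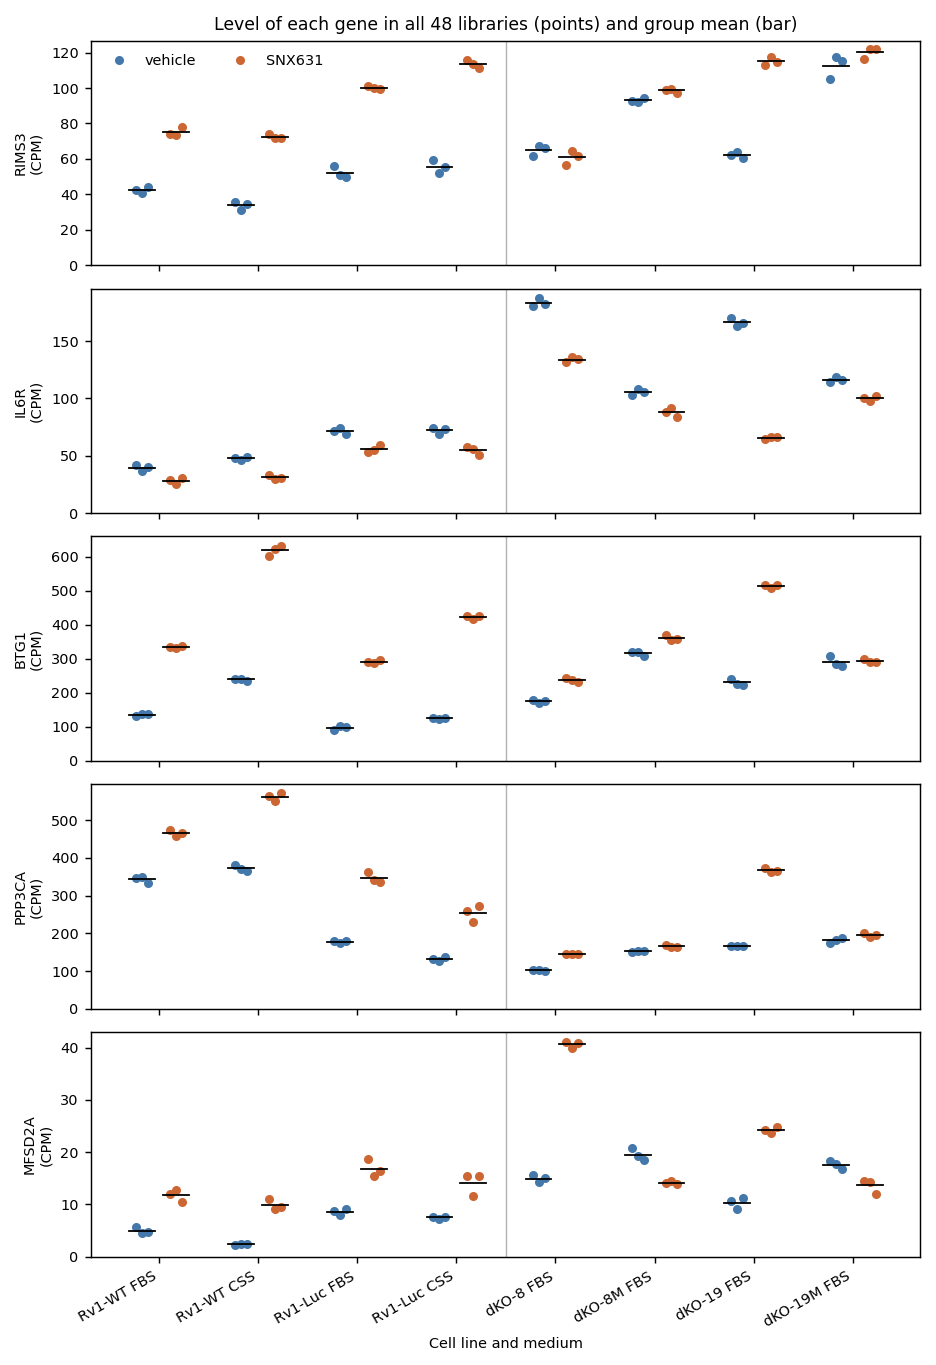
Level of each gene in CPM (vertical axes, linear, from 0) in the 8 combinations of cell line and medium (horizontal axis). Each point is a library, blue for vehicle and orange for SNX631, and bars are the means of 3 libraries. The grey line parts the lines with endogenous kinases on the left from the rescued lines on the right, and the highest MFSD2A libraries are those of dKO-8 under SNX631 (mean 40.6 CPM).

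IL6R was the receptor among the 5 genes and was lower under SNX631 in every setting. In Rv1-WT in FBS its level was 41.5, 36.6 and 40.2 CPM under vehicle and 28.8, 25.2 and 30.1 under SNX631, a log2 fold change of -0.48 ± 0.0606 (edgeR quasi-likelihood test with Benjamini-Hochberg adjustment, FDR 8.48e-09), short of the 1.5-fold limit. In Rv1-WT in CSS it was 48.2, 46.5 and 48.6 under vehicle and 33.5, 29.96 and 30.6 under SNX631 (-0.61 ± 0.0567, edgeR FDR 3.88e-13), the single setting in which the fall passed both limits, and without SNX631 replicate 2 it was -0.58 and short of the fold limit. The 2 groups did not overlap in either medium. In Rv1-Luc in FBS the values were 71.4, 74.1 and 68.9 under vehicle and 53.6, 54.9 and 59.7 under SNX631 (-0.35 ± 0.0486, edgeR FDR 6.39e-08). In Rv1-Luc in CSS they were 74.5, 68.97 and 73.5 and 57.4, 56.2 and 50.3 (-0.41 ± 0.0493, edgeR FDR 1.83e-09). Both Rv1-Luc differences passed the FDR limit and stayed under 1.5-fold.

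PPP3CA, the calcineurin subunit, was higher under SNX631 in both lines. In Rv1-WT in FBS its level was 346, 350.1 and 334 CPM under vehicle and 474, 459 and 465 under SNX631 (0.44 ± 0.0384, edgeR FDR 8.23e-14), under the fold limit. In CSS it was 381, 370.2 and 364 and 565, 549.96 and 571 (0.60 ± 0.0381, edgeR FDR 2.15e-19), just past the limit, and with library size as the only scaling or without vehicle replicate 3 the change was 0.58 and not called. All SNX631 libraries were nonetheless above all vehicle libraries. In Rv1-Luc in FBS it was 179, 175 and 179.99 under vehicle and 364, 340.3 and 336 under SNX631 (0.96 ± 0.0388, edgeR FDR 2.25e-28). In Rv1-Luc in CSS it was 132, 126 and 136 and 260.01, 231 and 272 (0.95 ± 0.0397, edgeR FDR 1.6e-27). The spread in that last group was the widest for this gene, at 8.39% of the mean.

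BTG1, the antiproliferative gene, had the largest log2 fold change of the 5 in 3 of the 4 settings, all but Rv1-WT in CSS, where that of MFSD2A was larger. In Rv1-WT in FBS its level was 133, 138 and 137 CPM under vehicle and 335, 333 and 338 under SNX631 (1.30 ± 0.0388, edgeR FDR 1.6e-34). In CSS it was 242, 242 and 235 and 602, 624 and 633 (1.37 ± 0.0372, edgeR FDR 1.12e-36). The treated Rv1-WT cells in CSS held the highest BTG1 level of all 16 groups. In Rv1-Luc in FBS it was 91.9, 103 and 98.4 under vehicle and 289, 288 and 296 under SNX631 (1.57 ± 0.0385, edgeR FDR 4.31e-39). In Rv1-Luc in CSS it was 126, 122 and 127 and 424, 416 and 424 (1.75 ± 0.0381, edgeR FDR 6.31e-42). Replicates were tight, with a standard deviation of at most 5.71% of the mean in these 8 groups.

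MFSD2A, the lysophosphatidylcholine carrier, had the fewest counts of the 5 genes and the widest replicate spread, with a standard deviation of up to 15.2% of the mean in treated Rv1-Luc in CSS. In Rv1-WT in FBS its level was 5.59, 4.49 and 4.74 CPM under vehicle and 12.01, 12.7 and 10.4 under SNX631 (1.23 ± 0.12, edgeR FDR 4.46e-12). In CSS it was 2.28, 2.48 and 2.44 and 11.05, 9.17 and 9.40 (2.04 ± 0.137, edgeR FDR 1.95e-18). The vehicle libraries in CSS held the lowest levels of the whole series for this gene, and the treated ones came back near those in FBS. In Rv1-Luc in FBS it was 8.70, 8.01 and 9.04 under vehicle and 18.7, 15.4 and 16.4 under SNX631 (0.97 ± 0.0892, edgeR FDR 2.95e-13). In Rv1-Luc in CSS it was 7.56, 7.26 and 7.67 and 15.4, 11.7 and 15.5 (0.92 ± 0.0949, edgeR FDR 1.42e-11). Treated and control libraries did not overlap in any of the 4 settings.

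RIMS3, the active zone scaffold, rose in all 4 settings. In Rv1-WT in FBS its level was 42.5, 40.8 and 44.1 CPM under vehicle and 74.3, 73.6 and 78.2 under SNX631 (0.83 ± 0.0534, edgeR FDR 6.51e-19). In CSS it was 35.8, 31.4 and 34.6 and 73.8, 71.98 and 72.1 (1.09 ± 0.0537, edgeR FDR 2.35e-24). The treated libraries of the parental line were thus close to each other in both media. In Rv1-Luc in FBS it was 55.7, 50.97 and 49.9 under vehicle and 101, 99.9 and 99.2 under SNX631 (0.94 ± 0.0478, edgeR FDR 9.37e-24). In Rv1-Luc in CSS it was 59.4, 52.2 and 55.3 and 116, 114 and 112 (1.03 ± 0.0476, edgeR FDR 1.18e-25). RIMS3 was higher in Rv1-Luc than in Rv1-WT in each of these conditions.

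**Figure D2:**
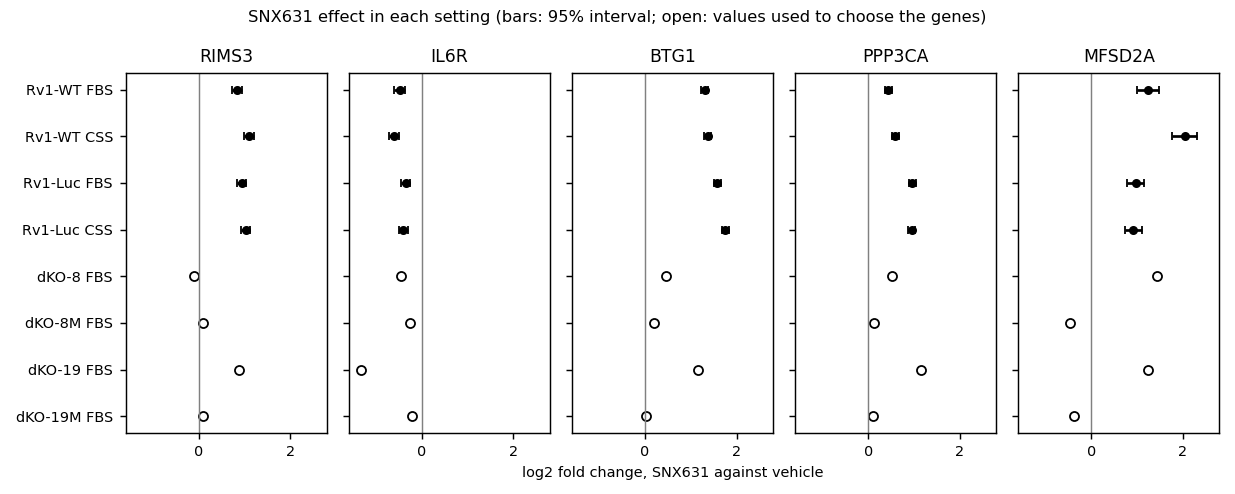
Effect of SNX631 on each gene as log2 fold change against vehicle (horizontal axis) in 8 combinations of line and medium (vertical axis). Filled points with 95% intervals are the tested settings, and open points, without intervals, are the values by which the genes were chosen. IL6R lies below 0 throughout, from -0.22 in dKO-19M to -1.34 in dKO-19, and MFSD2A changes side between the active and the kinase-dead lines.

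Whether the effect of SNX631 depended on medium or line was tested as a difference of 2 log2 fold changes. For MFSD2A the effect in Rv1-WT was larger in CSS than in FBS, by 0.81 ± 0.192 on the log2 scale (edgeR FDR 0.00781), and it was the 1 of 5 genes called, with 0.295% of all genes called. RIMS3 (0.27, 95% interval 0.11 to 0.42, edgeR FDR 0.0356) and PPP3CA (0.16, 95% interval 0.05 to 0.26, edgeR FDR 0.11) also had larger effects in CSS at an unadjusted p under 0.05, short of both limits. The MFSD2A call was close to the limit: leaving out 1 library gave 0.71 (without FBS vehicle replicate 1) to 0.87 (without FBS vehicle replicate 2), and the call was lost in 8 of 12 such fits, with library size as the only scaling (0.78, edgeR FDR 0.0105) and with counts thinned to the smallest library (0.74, edgeR FDR 0.0277). In Rv1-Luc the same difference was -0.05 ± 0.132, with 0 of 5 genes called by edgeR or DESeq2 (0.08% of all genes by edgeR) and 1 of 5, BTG1, at an unadjusted p under 0.05. The 5 differences reached from -0.05 for IL6R to 0.18 for BTG1. For Rv1-Luc minus Rv1-WT in FBS, 0 of 5 genes passed both limits by edgeR or DESeq2 (0.175% of all genes by edgeR), and 2 of 5 had an unadjusted p under 0.05. PPP3CA came nearest, with an effect larger in Rv1-Luc by 0.52 ± 0.0545 (edgeR FDR 5.91e-10, 95% interval 0.41 to 0.63), and BTG1 had a difference of 0.27 ± 0.0541 (edgeR FDR 0.00158). The intervals for RIMS3 (-0.03 to 0.25), IL6R (-0.02 to 0.29) and MFSD2A (-0.57 to 0.04) all held 0, and that of MFSD2A leaves a difference as large as its lower bound possible. Of these 15 differences with SNX631, that of MFSD2A in Rv1-WT was the one that was called. The share of all genes with an unadjusted p under 0.05 was not counted for these differences.

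The change from FBS to CSS asks how stripped serum alone moves these genes. It shares its libraries with the SNX631 comparisons of the same line, so the values are given side by side only. In Rv1-WT under vehicle, BTG1 rose by 0.82 ± 0.0388 (edgeR FDR 1.08e-25) and MFSD2A changed by -1.05 ± 0.161 (edgeR FDR 1.87e-07), 2 of 5 genes where 10.9% of all genes were called. MFSD2A thus fell in CSS from a mean of 4.94 to 2.40 CPM, and the 2 groups did not overlap. RIMS3 (-0.32), IL6R (0.28) and PPP3CA (0.11) stayed under the fold limit. Under SNX631 only BTG1 was called in Rv1-WT (1 of 5, against 7.83% of all genes), at 0.89 ± 0.0366 (edgeR FDR 4.87e-28), and MFSD2A stood at -0.24 with overlapping libraries.

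In Rv1-Luc, 0 of 5 genes were called by edgeR or DESeq2 for CSS against FBS under vehicle (1.49% of all genes by edgeR) and 0 of 5 under SNX631 (1.51%). At an unadjusted p under 0.05 there were 2 of 5 and 4 of 5, a limit at which the share of all genes was not counted. At FDR under 0.05 with no fold limit, which 14% of all genes passed under vehicle, BTG1 (0.36) and PPP3CA (-0.44) passed there (edgeR FDR 3.97e-10 and 5.01e-13). PPP3CA was thus lower in CSS in this line. The difference between the lines in the response to CSS was itself called for MFSD2A, at 0.85 ± 0.191 (edgeR FDR 0.000272), 1 of 5 genes where 8.65% of all genes were called, and it remained called in 12 of 12 fits without 1 library. BTG1 was higher in CSS by less in Rv1-Luc than in Rv1-WT (-0.46, edgeR FDR 5.91e-10). PPP3CA (-0.55, edgeR FDR 3.3e-12) had a CSS effect of -0.44 in Rv1-Luc and 0.11 in Rv1-WT, and RIMS3 had a difference of the other sign (0.41, edgeR FDR 1.25e-05), all 3 under the fold limit.

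The 2 lines also differed before any treatment. Under vehicle in FBS, IL6R was higher in Rv1-Luc by 0.86 ± 0.0529 (edgeR FDR 7.82e-21), MFSD2A higher by 0.79 ± 0.12 (edgeR FDR 1.21e-07) and PPP3CA lower, at -0.95 ± 0.0392 (edgeR FDR 9.73e-29). This is 3 of 5 genes, where 17.8% of all genes were called. BTG1 (-0.47) and RIMS3 (0.30) differed by less than 1.5-fold with an FDR of 1.82e-15 and 3.85e-06 by edgeR. The lines were separate cultures, so line and any batch of culture or library cannot be told apart.

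The rescued lines are where the genes were chosen, and their values follow as a description without tests. In dKO-8, with active CDK8, 342 genes or 1.71% of all genes were called under SNX631, and in dKO-19, with active CDK19, 682 or 3.41%. In the kinase-dead lines the counts were 3 in dKO-8M, or 0.015%, and 18 in dKO-19M, or 0.09%. By p-value for the difference between active and dead CDK8, MFSD2A ranked first, followed by the non-members TRGC1 (log2 difference -0.84) and DDIT3 (-1.25). For CDK19, BTG1 ranked first and PPP3CA 3, with NKILA (-2.22) between them, and IL6R, MFSD2A and RIMS3 ranked 7, 16 and 24. For CDK19 against CDK8, RIMS3, IL6R and BTG1 ranked 1, 2 and 3, and PPP3CA ranked 5, while MFSD2A ranked 4127.

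MFSD2A separated active from dead CDK8. In dKO-8 it stood at 15.6, 14.2 and 15.02 CPM under vehicle and 41.00, 39.97 and 40.8 under SNX631, a log2 fold change of 1.44. In dKO-8M it stood at 20.7, 19.2 and 18.4 under vehicle and 14.1, 14.4 and 13.9 under SNX631 (-0.47). The treated libraries were all above the controls in the active line and all below them in the dead line. In dKO-19 the values were 10.6, 9.14 and 11.1 under vehicle and 24.3, 23.7 and 24.9 under SNX631 (1.23). In dKO-19M they were 18.3, 17.7 and 16.7 and 14.5, 14.3 and 12.02 (-0.37). MFSD2A was the 1 gene of the 5 with opposite signs in active and dead lines for both kinases, with a log2 difference of 1.91 for CDK8 and 1.60 for CDK19, and of -0.21 between dKO-19 and dKO-8. Under SNX631 the dead lines ended below the active ones, with log2 differences of -1.52 for CDK8 and -0.84 for CDK19, although under vehicle they were above them (0.39 and 0.77). Without dKO-19M vehicle replicate 1, the effect in dKO-19M was -0.34, the CDK19 difference 1.57 and the vehicle difference 0.73.

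RIMS3 responded differently in dKO-19 and dKO-8. Over the genes that SNX631 affected, the paper reports similar effects in these lines. That is a correlation over the whole set, whereas RIMS3 is a single gene chosen for such a difference. In dKO-19 it stood at 62.00, 64.1 and 60.7 CPM under vehicle and 113, 117 and 115 under SNX631 (0.89). In dKO-8 it was 61.8, 67.1 and 66.2 and 56.5, 64.3 and 61.7 (-0.10), with overlapping libraries. The difference of these effects was 0.98, in a contrast by which the genes were chosen. In dKO-19M it was 105, 117 and 115 under vehicle and 116, 122 and 122 under SNX631 (0.10, or 0.05 without vehicle replicate 1), again overlapping. In dKO-8M it was 92.9, 91.9 and 94.1 and 99.1, 99.7 and 97.3 (0.09). The treated dKO-19 libraries overlapped the treated dKO-19M libraries, with a log2 difference of 0.06, whereas the treated dKO-8 libraries stayed below those of dKO-8M by a log2 difference of 0.70 in favor of the dead line. Under vehicle both dead lines held more RIMS3 than the active ones, by 0.52 for CDK8 and 0.85 for CDK19. The effect of SNX631 in the active line minus that in the dead line was -0.18 for CDK8 and 0.79 for CDK19, or 0.84 without dKO-19M vehicle replicate 1, which also puts the vehicle difference for CDK19 at 0.89.

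IL6R had its most negative difference in dKO-19, with 170.2, 163 and 166 CPM under vehicle and 64.7, 66.5 and 66.2 under SNX631 (-1.34). In dKO-8 it stood at 181, 188 and 182 and 131, 136 and 134 (-0.46). The rescued lines held more of this receptor transcript under vehicle than Rv1-WT or Rv1-Luc did. In dKO-8M it was 103, 108 and 106 under vehicle and 87.7, 91.9 and 83.95 under SNX631 (-0.26). In dKO-19M it was 114, 119 and 116 and 100.2, 98.1 and 102 (-0.22). IL6R was thus lower under SNX631 in the dead lines too, without overlap. The dead lines were below the active ones under vehicle (-0.80 for CDK8 and -0.51 for CDK19), and the treated dKO-19 cells lay below the treated dKO-19M cells, which were higher by 0.61. Active minus dead, the effect on IL6R was -0.19 for CDK8 and -1.12 for CDK19, and dKO-19 minus dKO-8 gave -0.88. Without dKO-19M vehicle replicate 1, the effect in dKO-19M was -0.23, the CDK19 difference -1.11 and the vehicle difference -0.51.

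BTG1 stood at 242, 227 and 224 CPM under vehicle and 518, 508 and 517 under SNX631 in dKO-19 (1.16). In dKO-19M it was 308, 285 and 278 and 301, 289 and 291 (0.02, or 0.06 without vehicle replicate 1), with overlapping libraries. In dKO-8 the difference was smaller, with 179, 169.9 and 175 under vehicle and 244, 239 and 232 under SNX631 (0.45), and in dKO-8M the values were 319, 320.3 and 309 and 369.9, 355 and 357 (0.19). Active minus dead, the effect on BTG1 was 0.26 for CDK8 and 1.14 for CDK19, or 1.09 without that replicate, and dKO-19 minus dKO-8 gave 0.71. The 2 treated active lines sat on opposite sides of their dead forms. Under SNX631 dKO-8M held more BTG1 than dKO-8 (0.60) and dKO-19M less than dKO-19 (-0.81), while under vehicle both dead lines were the higher ones (0.86 and 0.33, the latter 0.28 without that replicate).

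PPP3CA stood at 166, 166 and 166 CPM under vehicle and 374, 363 and 364 under SNX631 in dKO-19 (1.15). In dKO-19M it was 173, 183 and 187 and 199, 190.3 and 196 (0.11, or 0.08 without vehicle replicate 1). The log2 difference of these effects was 1.04, or 1.07 without dKO-19M vehicle replicate 1. In dKO-8 it was 102, 103 and 101 under vehicle and 145, 146 and 145 under SNX631 (0.51), and in dKO-8M 151, 153 and 153 and 169, 165 and 165 (0.13). The treated dKO-8 cells came within a log2 difference of 0.19 of treated dKO-8M, whereas the treated dKO-19 cells ended far above treated dKO-19M, which differed from them by -0.91. Active minus dead, the effect was 0.38 for CDK8, and dKO-19 minus dKO-8 gave 0.63. Already under vehicle, dKO-19 held more PPP3CA than dKO-8 (0.70).

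**Figure D3:**
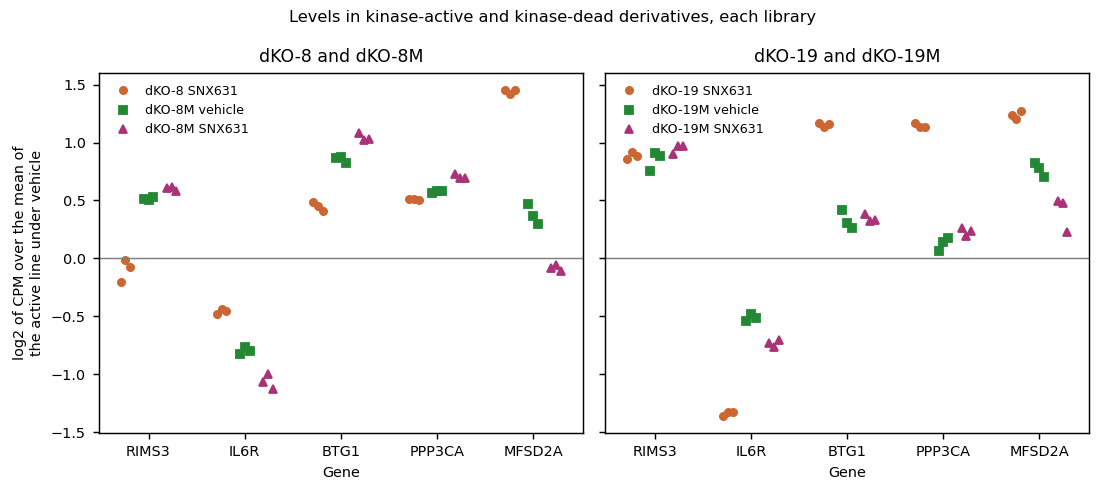
Levels in the rescued lines as log2 of CPM over the mean of the active line under vehicle (vertical axis, 0 is that mean) for each gene (horizontal axis). CDK8 lines are on the left and CDK19 lines on the right. Orange circles are the active line under SNX631, green squares the dead line under vehicle and purple triangles the dead line under SNX631, 1 point per library. For RIMS3 the treated active and the dead libraries lie together for CDK19 and apart for CDK8.

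Across all 16 groups the genes ranked their levels in different orders. RIMS3 ran from 33.9 CPM in Rv1-WT in CSS under vehicle to 120.1 in treated dKO-19M, and 9 of 15 pairs of neighbours in that order overlapped, including treated dKO-19 with treated dKO-19M. IL6R ran from 28.1 in treated Rv1-WT in FBS to 184 in dKO-8 under vehicle, with 3 of 15 neighbour pairs overlapping, all of them between FBS and CSS of the same line and treatment. The 4 Rv1-WT groups were the lowest for IL6R. BTG1 ran from 97.7 in Rv1-Luc in FBS under vehicle to 619 in treated Rv1-WT in CSS, with 4 of 15 overlapping. PPP3CA ran from 102 in dKO-8 under vehicle to 562 in treated Rv1-WT in CSS, with 5 of 15 overlapping, among them treated Rv1-Luc in FBS with Rv1-WT in FBS under vehicle. MFSD2A ran from 2.40 in Rv1-WT in CSS under vehicle to 40.6 in treated dKO-8, a 16.9-fold range that was the widest of the 5, with 8 of 15 overlapping. Over the group means of log2 CPM, IL6R and PPP3CA had a Pearson correlation of -0.88, RIMS3 and MFSD2A one of 0.70 and RIMS3 and BTG1 one of 0.63. These are descriptions over 16 groups that share lines and treatments.

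For each gene, the 3 of 14056 genes (named, and averaging 1 CPM or more) whose group means followed it most closely were also taken, by Pearson correlation over the 16 groups. They were YEATS2 (0.96), TLE5 (0.96) and NUDT16L1 (0.95) for IL6R, and ZNF385B (0.98), CLVS2 (0.96) and FLJ20021 (0.96) for PPP3CA. FLJ20021 is the transcript that overlaps PPP3CA on the opposite strand, so its reads may not be separate from those of PPP3CA. The nearest to BTG1 were GTF2H2 (0.92), ENC1 (0.91) and EDNRA (0.88). Those of MFSD2A were POMGNT1 (0.93), PLEKHA8P1 (0.92), a pseudogene, and SLC9A3R1 (0.90), and those of RIMS3 were TFCP2 (0.95), PCP4 (0.92) and MSL3 (0.91). With Spearman correlations, 8 of these 15 genes stayed among the nearest.

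The nearest protein-coding neighbours on the chromosome were examined for the same SNX631 comparisons. Beside PPP3CA, BANK1, a B cell adaptor gene (63007 bases away), and DDIT4L, a stress-induced inhibitor of mTOR signalling (832626 bases away), were each called in 6 of 8 comparisons, which were the 6 with an active kinase. Their log2 fold changes there were 1.43 to 2.26 for BANK1, at a mean of 1.18 CPM, and 0.92 to 1.85 for DDIT4L, at 16.7 CPM. In dKO-8M and dKO-19M the values were -0.05 and 0.57 for BANK1 and 0.07 and -0.29 for DDIT4L, and neither was called. Other genes behaved differently. ZNF684 and NFYC beside RIMS3 and CAP1 beside MFSD2A were called in 0 of 8 comparisons, with NFYC between -0.24 and -0.03 and CAP1 between -0.03 and 0.16. MYCL, a MYC family gene on the other side of MFSD2A, was called in 2 of 8, the active rescues, at -1.07 in dKO-8 and -0.997 in dKO-19, opposite in sign to MFSD2A. ATP8B2 beside IL6R was called once, at -0.76 in dKO-19, the line in which IL6R itself was lowest relative to vehicle. SHE, 321 bases past IL6R, was called once at a mean of 0.289 CPM, and the neighbours of BTG1, DCN and PLEKHG7, were not called, at 0.182 and 0.165 CPM, all too low to give a fold.

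**Figure D4:**
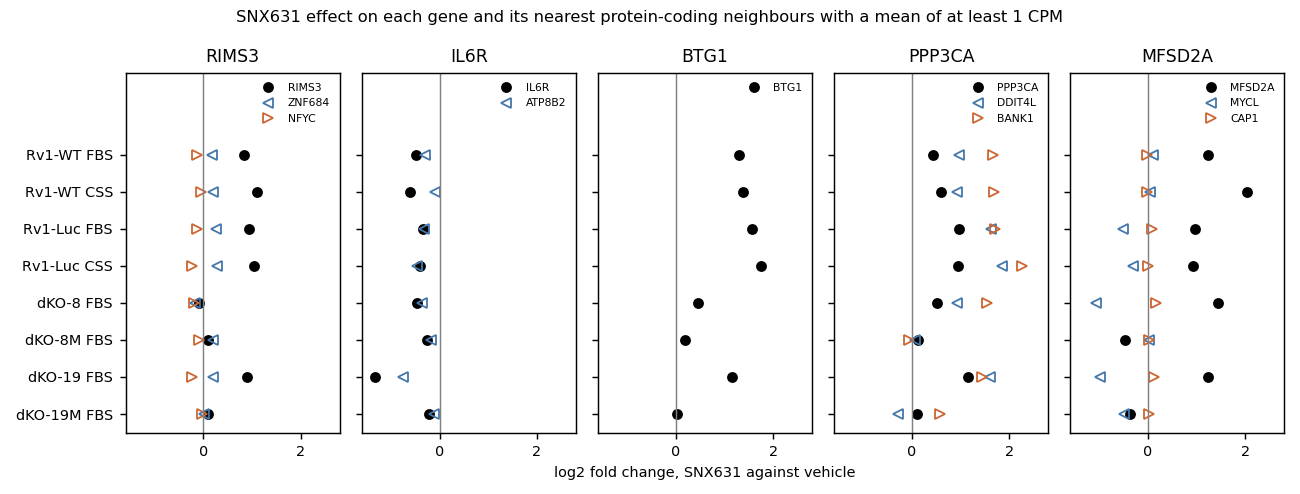
Log2 fold change under SNX631 (horizontal axis) for each gene (black) and its nearest protein-coding neighbours with a mean of at least 1 CPM, at lower (blue) and higher (orange) coordinates, in 8 combinations of line and medium (vertical axis). BTG1 has no such neighbour. The neighbours of PPP3CA were higher with it in the 6 lines and media with an active kinase, and CAP1 and NFYC lay near 0 throughout.

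Genes that work with each of the 5 were followed as lists, with the 5 themselves left out, in the 8 SNX631 comparisons. Over those 8, 2.45% of all tests of single genes were calls. Of 16 tested genes of interleukin 6 family signalling, none was called higher in any comparison by edgeR, and 3 calls (2.34% of the list's tests) were lower: LIFR, the receptor for leukemia inhibitory factor, at -0.82 in dKO-19 (edgeR FDR 5.2e-10), CNTFR, the ciliary neurotrophic factor receptor, at -0.62 in dKO-19 (edgeR FDR 8.95e-06), and OSMR, the oncostatin M receptor, at -0.59 in Rv1-Luc in CSS (edgeR FDR 0.00146). LIFR had values of -0.56 to -0.34 in the other kinase-active settings, short of the fold limit, and -0.04 in dKO-8M and 0.07 in dKO-19M. The list median lay between -0.17 and 0.07 over the 8 comparisons, against -0.0017 to 0.0072 for all genes.

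Of 18 calcineurin genes, 4 calls were made over the 8 comparisons, or 2.78% of the list's tests. NFATC4, a transcription factor that calcineurin activates, rose in Rv1-Luc in FBS (0.70, edgeR FDR 6.02e-07) and in dKO-19 (0.72, edgeR FDR 1.87e-06). RCAN1, a calcineurin inhibitor that is itself an NFAT target, fell in dKO-8 (-0.73, edgeR FDR 0.00837), and PPP3R2, at a mean of 0.186 CPM, was called higher in Rv1-Luc in CSS. Another catalytic subunit, PPP3CB, stood between -0.20 and 0.10 in all 8 comparisons and was not called. PPP3CC, also a catalytic subunit in the list, was not called either. The list median was between -0.06 and 0.04.

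Of 15 BTG/TOB and CCR4-NOT genes, TOB1, an antiproliferative relative of BTG1, rose in Rv1-WT in CSS (0.94, edgeR FDR 7.01e-30), the single call of the list (0.833% of its tests). In dKO-19, where BTG1 was higher under the drug, TOB1 stood at -0.19. BTG2 ranged from -0.32 in dKO-8 to 0.37 in Rv1-Luc in CSS with no call. The list median was between -0.06 and 0.05. Of 22 genes of RIM proteins and the active zone, with 3 calls (1.7% of tests), RIMS1 (0.84, edgeR FDR 0.000371) and UNC13C (a mean of 0.382 CPM) rose in Rv1-WT in CSS and PPFIA4, a liprin, fell in Rv1-Luc in CSS (-2.60, edgeR FDR 4.83e-05). The list median was between -0.02 and 0.11.

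Of 18 genes that handle lysophospholipids and polyunsaturated fatty acids, 11 calls were made, or 7.64% of the list's tests against 2.45% over all genes, with 5 of 18 called in Rv1-Luc in FBS (4 higher and 1 lower, against 3.67% of all genes). FABP7, a brain fatty acid binding protein at a mean of 0.369 CPM, accounted for 5 of the 11 calls. FABP5, the epidermal fatty acid binding protein, rose in Rv1-WT in CSS (0.86, edgeR FDR 5.31e-08) and in Rv1-Luc in FBS (0.60, edgeR FDR 2.07e-06). ELOVL5, an elongase of polyunsaturated fatty acids, rose in Rv1-Luc in FBS (0.66, edgeR FDR 6.46e-22) and had values of 0.30 to 0.48 in the other 5 kinase-active settings and of -0.02 and 0.05 in the dead ones. MFSD2B, a paralog of MFSD2A that carries sphingosine 1-phosphate, fell in Rv1-Luc in FBS (-0.62, edgeR FDR 5.51e-07), opposite to MFSD2A. The list median was between -0.02 and 0.12.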

How the data were processed

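Total RNA libraries (NEBNext Ultra II Directional) numbered 48, in 16 groups of 3. The values used were expected counts per gene, deposited by the authors in a single table without normalization, some of them fractional. Up to 35.4% of the values of a gene described here were not whole (BTG1), and all were rounded before fitting. The submitters' processing notes name cutadapt 2.8, STAR 2.7.2b, featureCounts, Subread 2.0.3 and FastQC, with the builds GRCh38.p13 and GRCm39 given no role. The counting options, strand setting and annotation are not given in the sources used here. The fractions may come from reads shared between genes, which was not tested.

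Genes were kept with the edgeR filter on low counts (minimum count 10, minimum total 15), leaving 20009 genes. Counts were scaled by TMM (factors 0.911 to 1.07) and fitted by group over all 48 libraries with edgeR 4.0.16 in R 4.3.3 (limma 3.58.1), with the robust quasi-likelihood F-test, two-sided, and Benjamini-Hochberg adjustment over all genes. The fit had 32 residual degrees of freedom and a common biological coefficient of variation of 4.20%. Calls required an FDR below 0.01 with more than a 1.5-fold change, the study's own limits. There were 13 tested comparisons, and the 3 contrasts by which the genes were chosen were not tested for them. Log2 CPM used a prior count of 0.5. Nearest genes in pattern (3 per gene, mean of at least 1 CPM), the 2 nearest protein-coding neighbours of each gene and up to 4 genes per list with the lowest FDR were named, and the neighbours and a few list relatives (PPP3CB and BTG2 among them) were added after their values were seen. The genes and the 5 lists were chosen with earlier results of these data known. The pipeline was tested on simulated data for SNX631 in Rv1-WT in FBS, where 96% of 2-fold and 100% of 4-fold changes were called, with 2 false calls among 19790 genes. The simulation gave every gene the same spread and held no outlying library. Changes were placed only in genes above a minimum level, so these rates may not hold for the measured libraries. DESeq2 1.42.0 and 8 other alternative settings were tried, besides 48 fits that left out 1 library each. Same-numbered replicates correlated from -0.21 to 0.36 in the tested SNX631 and medium comparisons, not over 0.1 in every pair of any of them, so the numbers were not taken to pair the samples there. In dKO-19M, described without a test, every pair was over 0.1 (0.175 to 0.451). One marker gene and one motif that were examined are not reported here.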

Additional observations from a re-analysis of the deposited data

Results flagged for a closer look

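MFSD2A, the lysophosphatidylcholine carrier, stood out because its response differed between groups under the same contrast, in 2 tests of the difference itself. The effect of SNX631 in Rv1-WT was larger in CSS than in FBS by 0.81 on the log2 scale, and the effect of CSS under vehicle was less negative in Rv1-Luc than in Rv1-WT by 0.85. Both differences use the vehicle libraries of Rv1-WT in CSS, where the level of MFSD2A was 2.28 to 2.48 CPM, and those of Rv1-WT in FBS, so they are not separate observations. The first was no longer called in 8 of 12 fits that left out 1 library, with 0.71 as the lowest value (without FBS vehicle replicate 1). The second was called in all 12 such fits, with values from 0.75 to 0.92.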

How the results depend on the processing

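All 300 values of the 20 SNX631 results in Rv1-WT and Rv1-Luc under alternatives kept their direction, and 291 kept their call, with 14 to 20 calls in place of 16 and 15 to 16 without 1 library. At FDR under 0.05 with no fold limit, IL6R was also called in Rv1-WT in FBS (-0.48) and in Rv1-Luc in FBS (-0.35) and CSS (-0.41), and PPP3CA in Rv1-WT in FBS (0.44). At that limit the calls on the 5 genes numbered 14 in place of 3 for CSS against FBS, 9 in place of 2 for differences between effects, 5 in place of 3 for Rv1-Luc against Rv1-WT, and 178 in place of 22 for the list genes. Over all genes, 12.7 to 44.9% passed it for CSS against FBS, 0.51 to 34.1% for the differences and 52.5% for Rv1-Luc against Rv1-WT. For SNX631 the shares of all genes were 14.5 to 26.5% in Rv1-WT and Rv1-Luc, and 0.485 to 26.5% over the 8 comparisons of the lists. In a test against a 1.5-fold change, which asks for more than the limit, IL6R (-0.61) and PPP3CA (0.60) were lost in Rv1-WT in CSS, differences between effects numbered 0 and list genes 5. MFSD2A lost its call for CSS against FBS in Rv1-WT under vehicle in 1 of 9 alternatives. Its call for Rv1-Luc against Rv1-WT was also lost in 1 of 9. The lowest number of calls was 2 in place of 3 in each of these 2 families of comparisons. With library size as the only scaling PPP3CA in Rv1-WT in CSS was 0.58 and lost, and PPP3CA gained the difference in CSS effect between lines (-0.62) as MFSD2A lost its own in SNX631 effect; the cause was not tested. Without 1 library, IL6R in Rv1-WT in CSS ran from -0.66 to -0.58 and PPP3CA from 0.58 to 0.62, and differences between effects from 1 to 2, with 1 also in thinned counts.

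Reversals concerned values near 0 that were never called. IL6R for CSS against FBS in Rv1-Luc ran from -0.00696 to 0.0505 under vehicle and from -0.0745 to 0.0180 under SNX631 without 1 library. For PPP3CA, SNX631 effect in CSS minus FBS, Rv1-Luc, the difference was 0.0139 with library size scaling, 0.00168 with RLE factors, 0.0140 with thinned counts and 0.00175 by DESeq2, and it ran from -0.0595 to 0.0594 without 1 library. For MFSD2A it ran from -0.123 to 0.0708 without 1 library.

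With the replicate number as a block within each line, the calls numbered 16 for SNX631, 3 for medium, 2 for differences and 3 between lines, as without it. In dKO-19M, where same-numbered libraries varied together, the block left the SNX631 values at 0.10 for RIMS3, -0.22 for IL6R, 0.02 for BTG1, 0.11 for PPP3CA and -0.37 for MFSD2A. List counts were not run with the block or without single libraries. Over all genes, SNX631 calls in Rv1-WT in FBS were 479, with 2895 at the looser limit and 111 against 1.5-fold, and those 2 settings moved every comparison by more than 1.5 times. Without the filter on low counts, or fitting only the groups compared, the calls in dKO-8M (3) became 6 and 14 and those in dKO-19M (18) became 32 and 1, and thinning left 1 in dKO-8M. The same 2 settings gave 50 and 2 in place of 16 for the medium difference in Rv1-Luc and 73 and 20 in place of 35 for the line difference. Fitting only the groups compared gave 198 in place of 298 and 184 in place of 303 for medium in Rv1-Luc. Depth limits MFSD2A most, at 40 counts in its lowest library.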
